A study of Mus musculus with 8 samples.

Results

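Interferon-stimulated genes are the genes that a cell turns on when interferon reaches its receptors, and 44 of them, of 53342 genes counted, were followed in macrophages of the infarcted mouse heart. They were taken by name from a list chosen with earlier results of these data known, and matched through their Ensembl identifiers. All 8 libraries came from wild-type C57BL/6 mice of 8 weeks, 3 days after myocardial infarction, and each held sorted macrophages kept in culture for 24 hours. The 4 groups of 2 libraries were Ly6Clo cells (little Ly6C on the surface) with IL-21 at 100 ng/mL, Ly6Clo cells without it, Ly6Chi cells (much Ly6C) with IL-21 at 100 ng/mL, and Ly6Chi cells without it. IL-21 is a T cell cytokine, and the comparison asks what it does to each macrophage subset. Macrophages lacking the IL-21 receptor, which the protocol also mentions, were not analysed here. The sample titles number the 2 libraries of each group 1 and 2, and the labels do not say what the number stands for, nor whether it marks separate mice or cultures. The p values below therefore measure only the spread between these libraries, which may be technical.

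Type I interferon binds its receptor and, through the kinases JAK1 and TYK2, activates transcription factors that join IRF9. The complex binds the interferon-stimulated response element, or ISRE, in the promoters of these genes, whose products block viral RNA, tag proteins and sense nucleic acids. In the infarcted heart, macrophages that take up debris of dying cells are known to start such a response through the factor IRF3.

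Deposited totals were 224329 to 483593 counts per library. On the scaled totals used for every CPM (counts scaled to library size) given here, 3 counts were worth 6.58 to 14.9 CPM. The 2 Ly6Clo libraries numbered 2 were the deepest, at 444670 and 483593 counts, against 269064 and 257385 in those numbered 1. The Ly6Chi libraries showed no such order, with 224329 and 284174 counts in number 2 and 287131 and 261205 in number 1. The library kit reads the 3' end of each transcript, so a level is a number of 3' tags and does not grow with transcript length. Of 10 macrophage markers, 9 were present, and Itgam, which encodes CD11b, was listed at 0 in every library. The summed level of 8 Ly6Chi markers was 246 to 500 CPM in Ly6Clo libraries and 1022 to 1340 CPM in Ly6Chi libraries, without overlap. That of 8 markers of Ly6Clo or resident cells was 1969 to 4045 CPM in Ly6Clo and 2046 to 3858 CPM in Ly6Chi, with overlap. Most of it was Pf4, at 2752 to 3550 CPM with IL-21 and 1675 to 1934 CPM without. Without Pf4 the sum still overlapped, at 294 to 807 CPM in Ly6Clo and 258 to 497 CPM in Ly6Chi. Gas6 was at 154 to 272 CPM in Ly6Clo and 57.4 to 130 CPM in Ly6Chi, and Cx3cr1 had 1 to 6 counts in each Ly6Clo library and 0 in Ly6Chi. Mrc1 overlapped, at 87.8 to 476 CPM in Ly6Clo and 114 to 395 CPM in Ly6Chi, and so did Folr2. Lyve1 was at 0 throughout, and Timd4 and Cd163 had 0 to 2 counts a library.

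The programme was plainly expressed in all 8 libraries. Of the 44 genes, 43 had enough counts to be tested, with 71 to 12089 counts over the libraries. Cxcl9, a chemokine typical of interferon gamma, had 3 counts in all and was not tested. The median of the members' mean levels was 224 CPM, against 76.7 CPM over all 5256 genes tested. Highest were Isg15, a ubiquitin-like protein tag, at a mean of 5155 CPM, Bst2 (tetherin, which holds budding virus at the cell surface) at 4322 CPM, Rsad2 (viperin, which makes a chain-terminating nucleotide) at 3310 CPM, Slfn5 at 1793 CPM and the DNA sensor Ifi204 at 1075 CPM. Interferon transcripts themselves were nearly absent: 9 of 10 listed interferon genes were at 0 throughout, Ifng among them, and Ifnb1 had 2 counts, in 1 Ly6Chi library without IL-21.

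Summed over the 44 genes, the level differed between replicate numbers, less between subsets, and hardly with IL-21. In libraries numbered 2, the sum was 30409 CPM with IL-21 and 29779 CPM without in Ly6Clo, and 38250 CPM with and 35219 CPM without in Ly6Chi. In those numbered 1 it was 16344 CPM with IL-21 and 15903 CPM without in Ly6Clo, and 22512 CPM with and 26964 CPM without in Ly6Chi. All 4 libraries numbered 2 lay above all 4 numbered 1, a 1.67-fold difference (log2 0.74, SD 0.24 over the 4 groups). The log2 ratio of Ly6Clo to Ly6Chi was -0.41, and that of IL-21 to no IL-21 was 0.03 in Ly6Clo and -0.03 in Ly6Chi, beside an SD of 0.54 between replicates. The sum was not tested, and in bulk RNA fewer cells that express a gene and less RNA per cell cannot be told apart.

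**Figure D1:**
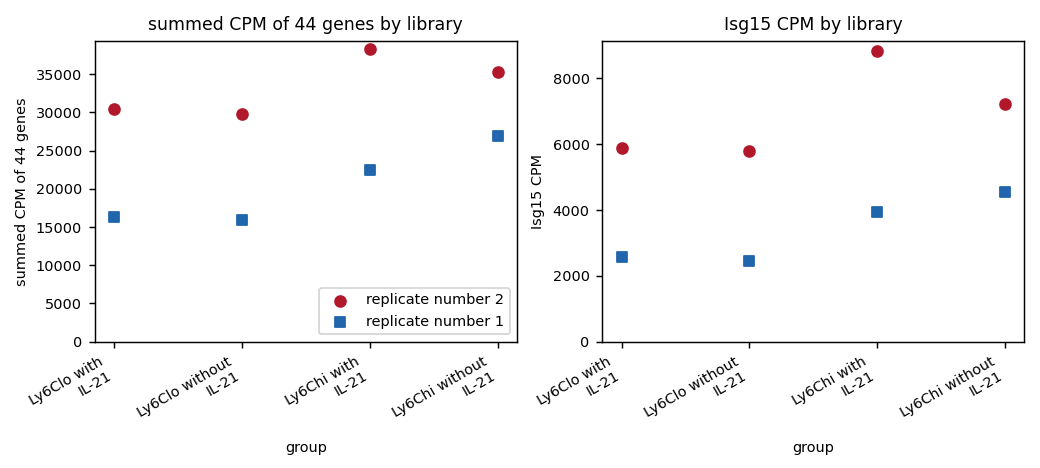
Summed CPM of the 44 interferon-stimulated genes (left) and CPM of Isg15 (right) for each of the 8 libraries, by group; circles are replicate number 2 and squares number 1. In every group the circle lies above the square, at 29779 against 15903 summed CPM in Ly6Clo without IL-21, for example, and 35219 against 26964 in Ly6Chi without.

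The medians over genes had the same order, but many single genes did not. For the median member, 52.8% of the variance over libraries lay between the numbers, 20.5% between the subsets and 1.8% between IL-21 and no IL-21, against 16.1%, 10.4% and 7.5% for the median gene tested. The share of the number was above that of the subset for 28 of 43 members and below it for 15, among them Slfn5 (0.7% number, 93.6% subset), Oas3 (0.6% and 90.8%), Oasl2 (6.8% and 72.3%) and Parp14 (4.1% and 61.8%). The share of IL-21 was above that of the subset for 7 members, including Irf9 (26.8% against 6.6%), and was the largest of the 3 for Oas1a and Dhx58, at 16.6% and 2.1%. The median Pearson correlation between members was 0.68 over 903 pairs and 8 libraries, a description of libraries that share their depth and number.

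**Figure D2:**
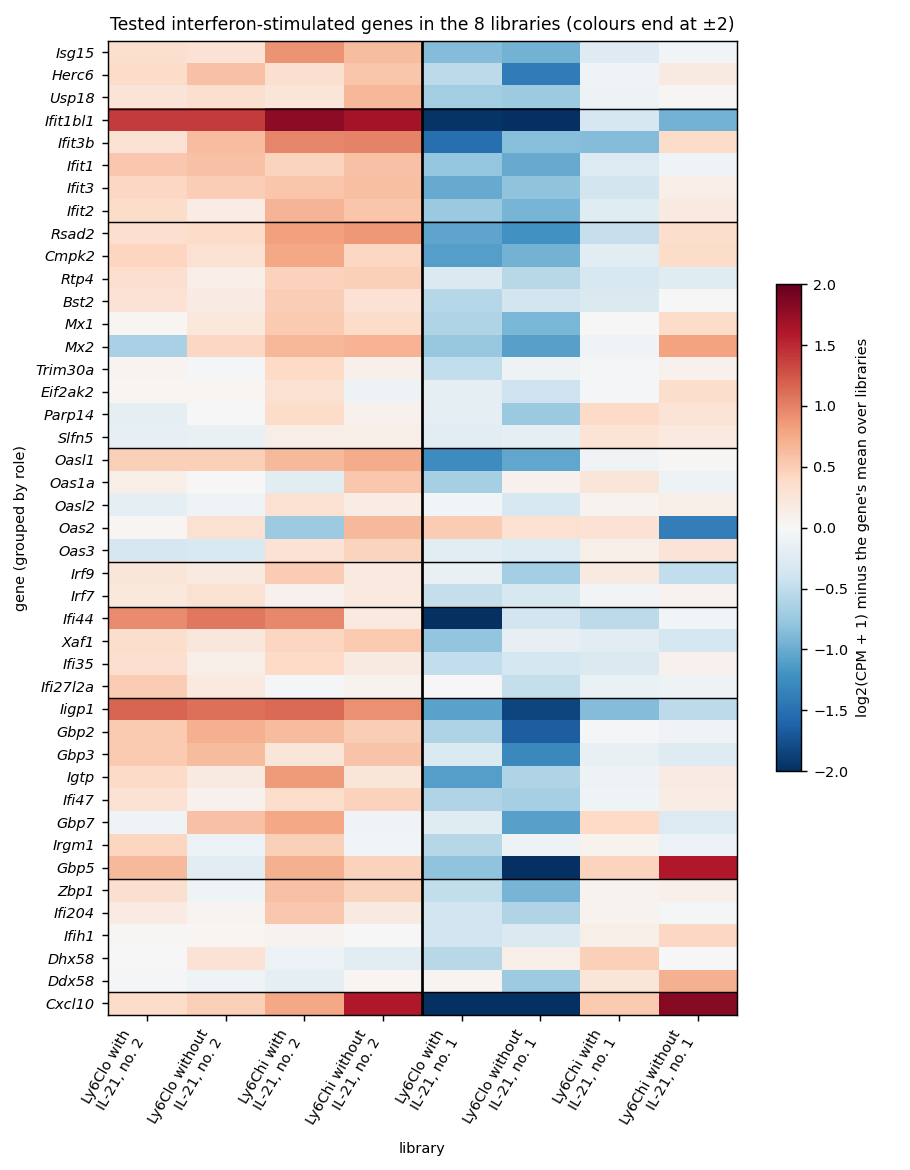
Level of each of 43 tested genes (rows, grouped by role) in the 8 libraries (columns, number 2 on the left), as log2(CPM + 1) minus the gene's mean over libraries; the colour scale ends at 2 in each direction. Most rows are red on the left and blue on the right, with Slfn5, Oas3 and Oasl2 among the pale ones.

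RefSeq promoter sequences (build GRCm38.p6, 250 bases before to 50 bases after a gene's start) were matched for 33 of the 44 genes. The ISRE core GAAANNGAAA, searched on both strands and with overlapping matches counted, was present for 21 of the 33 (63.6%), against 3.99% of 27025 genes. A match is a run of letters and not a shown binding site. The windows below belong to genes with a large number difference (Isg15, Ifit1, Ifit3, Ifit3b, Ifit1bl1, Rsad2) and to genes with little (Oas3, Slfn5), with the matches in capitals and 30 bases on each side.
Isg15 (chr4:156200845-156200926, minus strand): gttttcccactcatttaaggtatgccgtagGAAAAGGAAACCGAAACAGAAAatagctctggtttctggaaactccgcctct
Ifit1 (chr19:34640755-34640843, plus strand): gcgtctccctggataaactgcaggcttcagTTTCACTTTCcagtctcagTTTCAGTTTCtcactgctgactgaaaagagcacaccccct
Ifit3 (chr19:34583343-34583446, plus strand): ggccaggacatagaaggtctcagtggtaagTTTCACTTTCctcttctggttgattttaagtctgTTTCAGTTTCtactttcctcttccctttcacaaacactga
Ifit3b (chr19:34607739-34607842, plus strand): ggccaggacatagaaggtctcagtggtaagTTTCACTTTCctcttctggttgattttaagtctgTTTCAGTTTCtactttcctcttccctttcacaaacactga
Ifit1bl1 (chr19:34602033-34602102, minus strand): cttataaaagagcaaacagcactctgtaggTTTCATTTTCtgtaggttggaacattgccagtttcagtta
Rsad2 (chr12:26456533-26456602, minus strand): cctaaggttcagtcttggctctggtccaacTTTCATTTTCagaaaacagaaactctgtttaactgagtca
Oas3 (chr5:120777695-120777764, minus strand): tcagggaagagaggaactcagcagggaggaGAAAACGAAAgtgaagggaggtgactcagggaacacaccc
Slfn5 (chr11:82951917-82951986, plus strand): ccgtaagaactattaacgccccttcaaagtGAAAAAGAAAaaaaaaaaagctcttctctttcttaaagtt
Isg15 held 3 overlapping matches, the first 78 bases before its start, and Ifit1, Ifit3 and Ifit3b held 2 each. The windows of Ifit3 and Ifit3b were identical over 104 bases. Both kinds of gene held the motif: 10 of 21 tested members with a match were higher in libraries numbered 2 by the test given next, with a median log2 difference of 0.61, and so were 8 of 11 without a match, with a median of 0.77.

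The difference between replicate numbers was tested for every gene with edgeR's quasi-likelihood test, with the 4 groups in the model. Of 43 members, 24 were higher in libraries numbered 2 at a Benjamini-Hochberg adjusted p under 0.05 and none was lower, whereas 8.2% of all genes tested were called and 4.6% were called higher. Because the members were chosen with earlier results known, these shares describe the data and are not independent support. The median log2 difference was 0.60 for members and 0.00 for all genes, and 41 of 43 members lay above 0. Counting libraries alone, 28 of 43 members (65.1%) were higher in number 2 in all 4 groups, against 14.5% of 5254 genes, and for 18 members all 4 libraries numbered 2 lay above all 4 numbered 1, against 5.84%. The call count was 16 without either Ly6Clo library with IL-21 and 14 without either Ly6Clo library without IL-21, and calls over all genes fell alongside, to 3.8% to 3.89% and to 2.98% to 3.11%. In every fit that left out 1 library 14 members were called. DESeq2 called 15 members and 2.49% of all genes. Other features moved with the number as well, and their part in the result was not tested. The 10 macrophage markers summed to 8382 to 9323 CPM in number 2, against 10276 to 12717 CPM in number 1. That gap was carried mostly by Lyz2, at 2487 to 3446 CPM in number 2 and 4237 to 6773 CPM in number 1. The other 9 summed to 5320 to 6504 CPM and 5626 to 6371 CPM, with overlap. Single genes among them moved in both directions. Csf1r was lower in number 2, at 553 to 685 CPM against 807 to 1145 CPM, and Adgre1 was lower within each group. Fcgr1 was higher in number 2, at 709 to 1048 CPM against 502 to 652 CPM. The 5 endothelial markers, mostly Kdr, summed to 192 to 338 CPM in number 2 against 66.4 to 139 CPM in number 1. The 5 plasmacytoid dendritic cell markers summed to 165 to 267 CPM in number 2 and 197 to 324 CPM in number 1, nearly all of it Tcf4; Siglech and Klk1 were at 0 throughout, and Ccr9 and Cox6a2 had 0 to 5 counts a library. T cell markers had 0 to 4 counts a library.

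**Figure D3:**
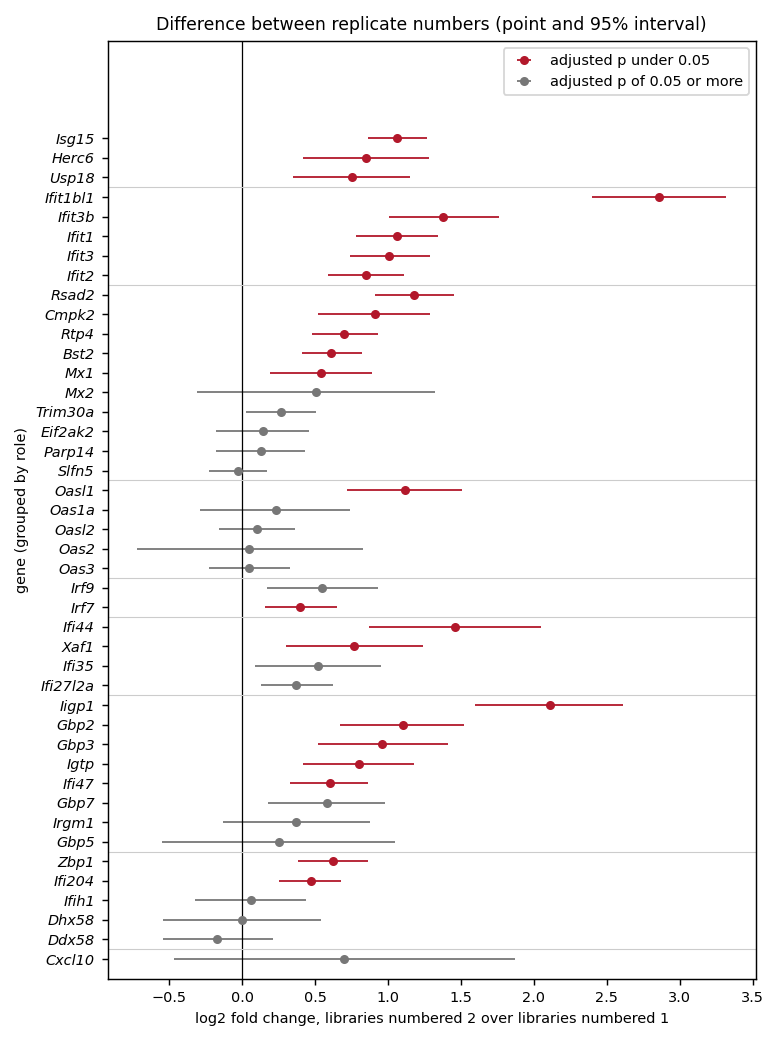
Log2 fold change of libraries numbered 2 over libraries numbered 1 for each of 43 genes, grouped by role, with 95% intervals; red points passed an adjusted p of 0.05. All red points lie right of 0, up to 2.86 for Ifit1bl1, while the OAS genes other than Oasl1 and the sensors Ddx58, Dhx58 and Ifih1 sit at or near 0.

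All 5 IFIT genes, whose proteins bind foreign RNA and block its translation, rose in number 2. In libraries numbered 2, Ifit1bl1 stood at 375 CPM with IL-21 and 377 CPM without in Ly6Clo, and 496 CPM with and 454 CPM without in Ly6Chi. Libraries numbered 1 had 36 CPM with IL-21 and 16.6 CPM without in Ly6Clo, and 113 CPM with and 73.8 CPM without in Ly6Chi. Those 2 Ly6Clo values rest on 9 and 4 counts. Every library numbered 2 was several times above every library numbered 1, and the log2 difference was 2.86 (SE 0.22, adjusted p = 9.38e-09 by edgeR's quasi-likelihood test). Among the libraries numbered 2, Ifit3b stood at 902 CPM with IL-21 and 1130 CPM without in Ly6Clo, and 1450 CPM with and 1468 CPM without in Ly6Chi. Those numbered 1 had 260 CPM with IL-21 and 411 CPM without in Ly6Clo, and 403 CPM with and 955 CPM without in Ly6Chi. The groups overlapped only through the Ly6Chi library without IL-21 of number 1, which lay above 1 Ly6Clo library of number 2 (log2 1.38, SE 0.17, adjusted p = 0.000137). Ifit1 had 944 and 972 CPM in Ly6Clo and 884 and 972 CPM in Ly6Chi of number 2, against 380 and 324 CPM in Ly6Clo and 535 and 615 CPM in Ly6Chi of number 1 (with and without IL-21), and all 4 of number 2 were higher (log2 1.06, SE 0.14, adjusted p = 9.4e-06). Ifit3 had 875 and 917 CPM in Ly6Clo and 958 and 999 CPM in Ly6Chi of number 2, against 324 and 374 CPM in Ly6Clo and 505 and 717 CPM in Ly6Chi of number 1 (with and without IL-21). All of number 2 were again higher (log2 1.01, SE 0.13, adjusted p = 1.45e-05). Of the 60-base words in the last 400 bases of Ifit3, 16.7% occur in Ifit3b, so reads of this pair could be split between them. For Ifit2, which differed by log2 0.85 (SE 0.13, adjusted p = 4.78e-05), 1 Ly6Chi library of number 1 reached into the range of number 2.

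The 3 genes of ISG15 tagging and feedback rose as well. For libraries numbered 2, Isg15 stood at 5880 CPM with IL-21 and 5792 CPM without in Ly6Clo, and 8823 CPM with and 7231 CPM without in Ly6Chi. Libraries numbered 1 had 2578 CPM with IL-21 and 2437 CPM without in Ly6Clo, and 3946 CPM with and 4555 CPM without in Ly6Chi. The number 2 values were all higher, with no overlap (log2 1.06, SE 0.10, adjusted p = 7.02e-08 by edgeR). Usp18, which removes ISG15 from proteins and damps the interferon receptor, had 140 and 147 CPM in Ly6Clo and 139 and 187 CPM in Ly6Chi of number 2, against 71.9 and 70.6 CPM in Ly6Clo and 109 and 119 CPM in Ly6Chi of number 1 (with and without IL-21). All 4 of number 2 were higher (log2 0.75, SE 0.20, adjusted p = 0.016). Herc6, the ligase that attaches ISG15 in mice, differed by log2 0.85 and overlaps Gm45193 on the same strand. Herc6 and Usp18 were each called in 4 of the 8 fits that left out a library.

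Of the 10 antiviral effectors, 5 rose. In the libraries numbered 2, Rsad2 stood at 3682 CPM with IL-21 and 3757 CPM without in Ly6Clo, and 5154 CPM with and 5362 CPM without in Ly6Chi. The libraries numbered 1 had 1407 CPM with IL-21 and 1262 CPM without in Ly6Clo, and 2135 CPM with and 3718 CPM without in Ly6Chi. The 3 other libraries numbered 1 were well below every library of number 2, while the Ly6Chi one without IL-21 was within its range (log2 1.18, SE 0.13, adjusted p = 2.59e-06 by edgeR). Cmpk2, a nucleotide kinase encoded beside Rsad2, had 325 and 298 CPM in Ly6Clo and 417 and 324 CPM in Ly6Chi of number 2, against 112 and 125 CPM in Ly6Clo and 207 and 312 CPM in Ly6Chi of number 1 (with and without IL-21). The highest library of number 1 reached into number 2 (log2 0.91, SE 0.18, adjusted p = 0.00232). Bst2 had 5106 and 4692 CPM in Ly6Clo and 5933 and 5129 CPM in Ly6Chi of number 2, against 2838 and 3259 CPM in Ly6Clo and 3434 and 4182 CPM in Ly6Chi of number 1 (with and without IL-21). Number 2 was higher throughout (log2 0.61, SE 0.10, adjusted p = 0.000131). Rtp4 differed by log2 0.70 and Mx1, a GTPase that traps viral nucleocapsids, by 0.54 (SE 0.17, adjusted p = 0.0464). Mx1 had 219 and 246 CPM in Ly6Clo and 308 and 275 CPM in Ly6Chi of number 2, against 140 and 112 CPM in Ly6Clo and 215 and 275 CPM in Ly6Chi of number 1 (with and without IL-21), and the numbers overlapped. The Mx1 call held in 2 of 8 fits without 1 library. Slfn5, of the Schlafen family, did not pass. With number 2, Slfn5 stood at 1594 CPM with IL-21 and 1602 CPM without in Ly6Clo, and 1946 CPM with and 1930 CPM without in Ly6Chi. With number 1 came 1523 CPM with IL-21 and 1578 CPM without in Ly6Clo, and 2139 CPM with and 2029 CPM without in Ly6Chi. The numbers overlapped fully in Slfn5 (log2 -0.03, 95% interval -0.23 to 0.17). Mx2, Trim30a, Eif2ak2 (the kinase PKR) and Parp14 did not pass, at log2 0.51, 0.27, 0.14 and 0.13. Mx2 had 17.3 and 37.3 CPM in Ly6Clo and 44.7 and 45.8 CPM in Ly6Chi of number 2, against 16 and 12.5 CPM in Ly6Clo and 26.4 and 49.2 CPM in Ly6Chi of number 1 (with and without IL-21), with overlap.

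The OAS family, some of whose members make the 2-5A signal that activates RNase L, split. Among libraries numbered 2, Oasl1 stood at 202 CPM with IL-21 and 204 CPM without in Ly6Clo, and 228 CPM with and 244 CPM without in Ly6Chi. Among those numbered 1 were 60 CPM with IL-21 and 70.6 CPM without in Ly6Clo, and 139 CPM with and 148 CPM without in Ly6Chi. Oasl1, which restrains Irf7 translation in mice, was higher in every number 2 library (log2 1.12, SE 0.19, adjusted p = 0.000255 by edgeR); it overlaps the gene Gm13822. Oas3 ranged over 242 to 416 CPM in the 4 libraries numbered 2, against 253 to 365 CPM in the 4 numbered 1, and Oasl2 had 355 and 380 CPM in Ly6Clo and 496 and 446 CPM in Ly6Chi of number 2, against 388 and 320 CPM in Ly6Clo and 422 and 435 CPM in Ly6Chi of number 1 (with and without IL-21). Their ranges overlapped, with log2 0.05 (95% interval -0.23 to 0.33) for Oas3 and 0.10 (-0.16 to 0.36) for Oasl2. Oas2 had 34.5 and 41.7 CPM in Ly6Clo and 19.9 and 53.4 CPM in Ly6Chi of number 2, against 48 and 41.5 CPM in Ly6Clo and 41.4 and 12.3 CPM in Ly6Chi of number 1 (with and without IL-21), with no order by number or IL-21. Oas1a did not pass either, and 37.0% of the 3' words of Oas1a occur in Oas1g. The difference between family members was not itself tested.

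Among the GTPases that attack the membranes of intracellular pathogens, 5 of 8 rose. Across libraries numbered 2, Iigp1 stood at 173 CPM with IL-21 and 165 CPM without in Ly6Clo, and 169 CPM with and 145 CPM without in Ly6Chi. Across those numbered 1 were 36 CPM with IL-21 and 20.8 CPM without in Ly6Clo, and 41.4 CPM with and 53.3 CPM without in Ly6Chi. The 2 Ly6Clo values of number 1 rest on 9 and 5 counts. Number 2 was again far above number 1 without overlap (log2 2.11, SE 0.25, adjusted p = 1.53e-06 by edgeR). Gbp2 had 266 and 301 CPM in Ly6Clo and 288 and 259 CPM in Ly6Chi of number 2, against 120 and 58.1 CPM in Ly6Clo and 181 and 176 CPM in Ly6Chi of number 1 (with and without IL-21). The log2 difference was 1.10 (SE 0.21, adjusted p = 0.000984). Gbp3 had 163 and 176 CPM in Ly6Clo and 134 and 168 CPM in Ly6Chi of number 2, against 91.9 and 45.7 CPM in Ly6Clo and 102 and 94.3 CPM in Ly6Chi of number 1 (with and without IL-21). It differed by log2 0.96 (SE 0.22, adjusted p = 0.00427). Neither gene overlapped between the numbers. Igtp and Ifi47 differed by log2 0.80 and 0.60, and each overlaps another expressed gene on the same strand. Gbp7 (log2 0.58, adjusted p = 0.0666), Irgm1 and Gbp5 did not pass. Gbp5, which promotes inflammasome assembly, had 56.7 and 30.7 CPM in Ly6Clo and 59.6 and 49.6 CPM in Ly6Chi of number 2, against 20 and 4.15 CPM in Ly6Clo and 48.9 and 111 CPM in Ly6Chi of number 1 (with and without IL-21). Number 2 lay above number 1 in Ly6Clo and not in Ly6Chi. Irgm1, a regulator of autophagy, had 96.1 and 65.8 CPM in Ly6Clo and 99.3 and 68.6 CPM in Ly6Chi of number 2, against 48 and 66.4 CPM in Ly6Clo and 75.3 and 65.6 CPM in Ly6Chi of number 1 (with and without IL-21), and the numbers overlapped.

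Of the 5 nucleic acid sensors, Zbp1, a sensor of Z-form nucleic acid, and Ifi204 rose, by log2 0.62 and 0.47. Ifi204 had 1171 and 1091 CPM in Ly6Clo and 1519 and 1190 CPM in Ly6Chi of number 2, against 807 and 689 CPM in Ly6Clo and 1099 and 1033 CPM in Ly6Chi of number 1 (with and without IL-21). The numbers just overlapped. The RNA helicase sensors did not pass: Ddx58 (RIG-I) was at 195 CPM with IL-21 and 189 CPM without in Ly6Clo, and 174 CPM with and 206 CPM without in Ly6Chi in number 2. In number 1 it was at 208 CPM with IL-21 and 120 CPM without in Ly6Clo, and 237 CPM with and 328 CPM without in Ly6Chi. Over both subsets the numbers overlapped in Ddx58 (log2 -0.17, 95% interval -0.54 to 0.21). In Ly6Chi alone, a fit chosen after seeing the data, both number 2 values lay below both of number 1. That difference did not pass (log2 -0.58, 95% interval -1.01 to -0.14, adjusted p = 0.153 by edgeR), and in Ly6Clo it was log2 0.23. Ifih1 (MDA5) and Dhx58 (LGP2) gave log2 0.06 and 0.00. Dhx58 had 54.2 and 65.8 CPM in Ly6Clo and 49.6 and 45.8 CPM in Ly6Chi of number 2, against 36 and 58.1 CPM in Ly6Clo and 75.3 and 53.3 CPM in Ly6Chi of number 1 (with and without IL-21), and the numbers overlapped. Of the transcription factors, Irf7, the main amplifier of type I interferon, had 885 and 950 CPM in Ly6Clo and 814 and 877 CPM in Ly6Chi of number 2, against 548 and 610 CPM in Ly6Clo and 734 and 804 CPM in Ly6Chi of number 1 (with and without IL-21). Number 2 was higher throughout (log2 0.40, SE 0.12, adjusted p = 0.0312 by edgeR), and the gene overlaps Phrf1 on the opposite strand. Irf9 had 158 and 151 CPM in Ly6Clo and 189 and 153 CPM in Ly6Chi of number 2, against 120 and 83 CPM in Ly6Clo and 151 and 94.3 CPM in Ly6Chi of number 1 (with and without IL-21). The numbers met at 151 CPM and the difference did not pass (log2 0.55, adjusted p = 0.0633); Irf9 overlaps Rnf31 on the same strand. Of the remaining induced genes, Ifi44 had 148 and 160 CPM in Ly6Clo and 149 and 87.7 CPM in Ly6Chi of number 2, against 16 and 58.1 CPM in Ly6Clo and 52.7 and 73.8 CPM in Ly6Chi of number 1 (with and without IL-21), all higher in number 2 (log2 1.46, SE 0.29, adjusted p = 0.00168 by edgeR). Its lowest value, in Ly6Clo with IL-21 of number 1, rests on 4 counts. Xaf1 differed by log2 0.77 (SE 0.23, adjusted p = 0.0342), a call that none of the 8 fits without 1 library kept. Ifi27l2a had 863 and 691 CPM in Ly6Clo and 586 and 633 CPM in Ly6Chi of number 2, against 600 and 432 CPM in Ly6Clo and 553 and 562 CPM in Ly6Chi of number 1 (with and without IL-21), which overlap (log2 0.37, adjusted p = 0.0538), and Ifi35 did not pass.

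Genes outside the list were read alongside, from lists also chosen with earlier results of these data known. Of 89 further interferon-stimulated genes, 73 were tested, and 29 were called higher and 1 lower in number 2, against the 4.6% of all genes called higher, with a median log2 of 0.49. Ccl5, a chemokine for T cells and monocytes, was at 1809 CPM with IL-21 and 2032 CPM without in Ly6Clo, and at 1261 CPM with and 1289 CPM without in Ly6Chi, in number 2. In number 1 it was at 220 CPM with and 299 CPM without in Ly6Clo, and at 181 CPM with and 148 CPM without in Ly6Chi. These values are far apart (log2 2.92, SE 0.12, adjusted p = 9.86e-16 by edgeR). Isg20, Ms4a4c and Ifi206 followed at log2 1.42, 1.25 and 1.02. Of 43 genes of the interferon pathway (ligands, receptors, kinases, transcription factors, sensors and inhibitors), 24 were tested and 1 was called, a share below that of all genes; it was Irf1, at log2 0.59 (SE 0.17, adjusted p = 0.0275). Stat2 gave log2 0.34 (adjusted p = 0.192).

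The number difference was larger in Ly6Clo than in Ly6Chi for most members. Fitted within each subset, a comparison chosen after seeing the data, edgeR's test called 27 of 43 members in Ly6Clo and 10 in Ly6Chi, all higher in number 2. Over all genes it called 7.76% in Ly6Clo (4.68% higher) and 3.81% in Ly6Chi (2.09% higher). All 10 called in Ly6Chi, namely Isg15, Rsad2, Ifit1, Ifit1bl1, Ifit2, Ifit3, Ifit3b, Iigp1, Bst2 and Rtp4, were among the 27. The count in Ly6Clo was 15 without the number 1 library with IL-21, 17 without that without IL-21 and 15 with DESeq2. In Ly6Chi it was 6 without the number 2 library with IL-21, 5 without the number 1 library with IL-21 and 5 with DESeq2. The share of all genes called in these alternative fits, and in those of the difference between subsets below, is not given here. A loss of member calls and a general loss of calls therefore cannot be told apart. The greater depth of the Ly6Clo libraries numbered 2 moved with the larger difference in Ly6Clo, and its part was not tested. The difference between the subsets was above 0 for 38 of 43 members, with a median log2 of 0.49. The matching share and median over all genes are not given here. Among members, the test of that difference between the subsets called only Cxcl10, with 0.59% of all genes called. That count was 0 with DESeq2. Without 1 library it was 0 for the Ly6Clo libraries without IL-21 (both numbers) and with IL-21 (number 1) and for both Ly6Chi libraries without IL-21, 4 for the Ly6Clo library with IL-21 of number 2, and 6 for either Ly6Chi library with IL-21. Cxcl10, the chemokine ligand of CXCR3 on T cells, was at 71.5 CPM with IL-21 and 76.8 CPM without in Ly6Clo of number 2, against 12 CPM with and 4.15 CPM without in Ly6Clo of number 1. In Ly6Chi it was at 94.3 CPM with IL-21 and 168 CPM without in number 2, against 79.1 CPM with and 197 CPM without in number 1. The numbers were far apart in Ly6Clo and overlapped in Ly6Chi. The difference was log2 3.12 (SE 0.54) in Ly6Clo and -0.06 (SE 0.28) in Ly6Chi, and the gap between these was 3.19 (SE 0.63, 95% interval 1.89 to 4.48, adjusted p = 0.00703 by edgeR). The low Ly6Clo values rest on 3 counts and 1 count. The gap was 2.60 to 4.16 in the 8 fits without 1 library, of which 3 kept the call and 5 lost it, and the gene overlaps Art3 on the opposite strand. Gbp5 showed a like gap of 2.39 that did not pass (adjusted p = 0.158 by edgeR), and its low Ly6Clo values rest on 5 counts and 1 count.

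**Figure D4:**
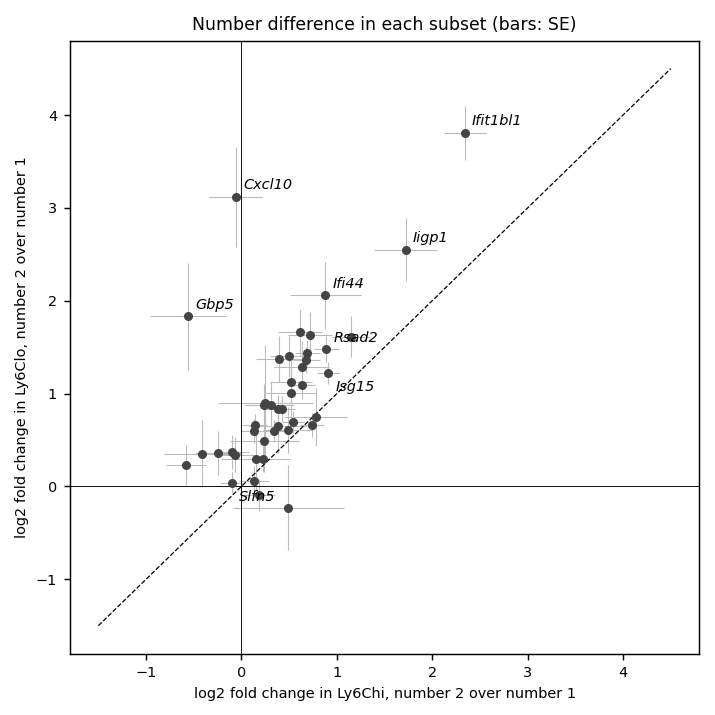
Log2 fold change of number 2 over number 1 in Ly6Clo (vertical axis) against that in Ly6Chi (horizontal axis) for 43 genes, with SE bars and the line of equality. Of the points, 38 lie above the line, and Cxcl10 stands at 3.12 in Ly6Clo and -0.06 in Ly6Chi.

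IL-21 moved no interferon-stimulated gene past the test. By edgeR's quasi-likelihood test, 0 of 43 members were called in Ly6Clo (0.133% of all genes called), in Ly6Chi (0.019%), on average over both (0.171%) or for the difference between the subsets (0%). None reached even an unadjusted p under 0.05, for which the share of all genes is not given here, and DESeq2 called none. The median log2 difference was 0.02 in Ly6Clo, -0.05 in Ly6Chi and 0.00 on average. Of 43 members, 2 (Irf9 and Ifi204) were higher with IL-21 in all 4 pairs of the same subset and number, against 9.88% of all genes, and 4 (Ifit3, Ifit3b, Oasl1 and Irf7) were lower in all 4, against 8.96%. The 95% interval of the average effect excluded a 2-fold change in either direction for 28 of 43 members: 16 of the 19 not called for the number, and 12 of the 24 called for it. So Slfn5 was bounded tightly, at log2 0.01 (-0.29 to 0.31), as were Oasl2 at 0.07 (-0.27 to 0.40), Irf7 at -0.12 (-0.53 to 0.28) and Mx1 at -0.05 (-0.57 to 0.46). Isg15, at 0.08, kept an interval of -1.04 to 1.19, and for Rsad2, at -0.15, it was -1.56 to 1.26. In this model the number difference stays in the spread. With the number added as a replicate block, the intervals were -0.17 to 0.25 for Isg15 and -0.47 to 0.06 for Rsad2. They then excluded a 2-fold change for 24 of the 24 members called for the number and 16 of the other 19. The labels do not say that a number pairs libraries.

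Irf9, a transcription factor that binds the ISRE, had 158 and 120 CPM with IL-21 against 151 and 83 CPM without in Ly6Clo, and 189 and 151 CPM with against 153 and 94.3 CPM without in Ly6Chi. It was higher with IL-21 in each pair, by a fitted average of log2 0.32 (-0.19 to 0.84), which did not pass. Cxcl10 in Ly6Chi had 94.3 and 79.1 CPM with IL-21 against 168 and 197 CPM without (log2 -1.08, 95% interval -3.02 to 0.86). In Ly6Clo it gave log2 -0.04 (-2.27 to 2.19). Gbp7 in Ly6Chi had 348 and 267 CPM with IL-21 against 194 and 168 CPM without, which do not overlap (log2 0.75, -0.17 to 1.67), and in Ly6Clo 192 and 172 CPM against 305 and 95.5 CPM (log2 -0.20). The difference between the subsets was log2 -0.95 for Gbp7 and 1.54 for Gbp5, and neither passed. In Ly6Clo of number 1, Gbp5 had 5 counts with IL-21 and 1 without. Of the further interferon-stimulated genes, none of 73 was called for the average; Ifitm2, which blocks viral entry, came nearest at log2 1.03 (SE 0.24, adjusted p = 0.166 by edgeR), with 163 and 276 CPM with IL-21 against 101 and 125 CPM without in Ly6Clo, and 228 and 290 CPM against 87.7 and 156 CPM in Ly6Chi. None of the 24 pathway genes passed.

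**Figure D5:**
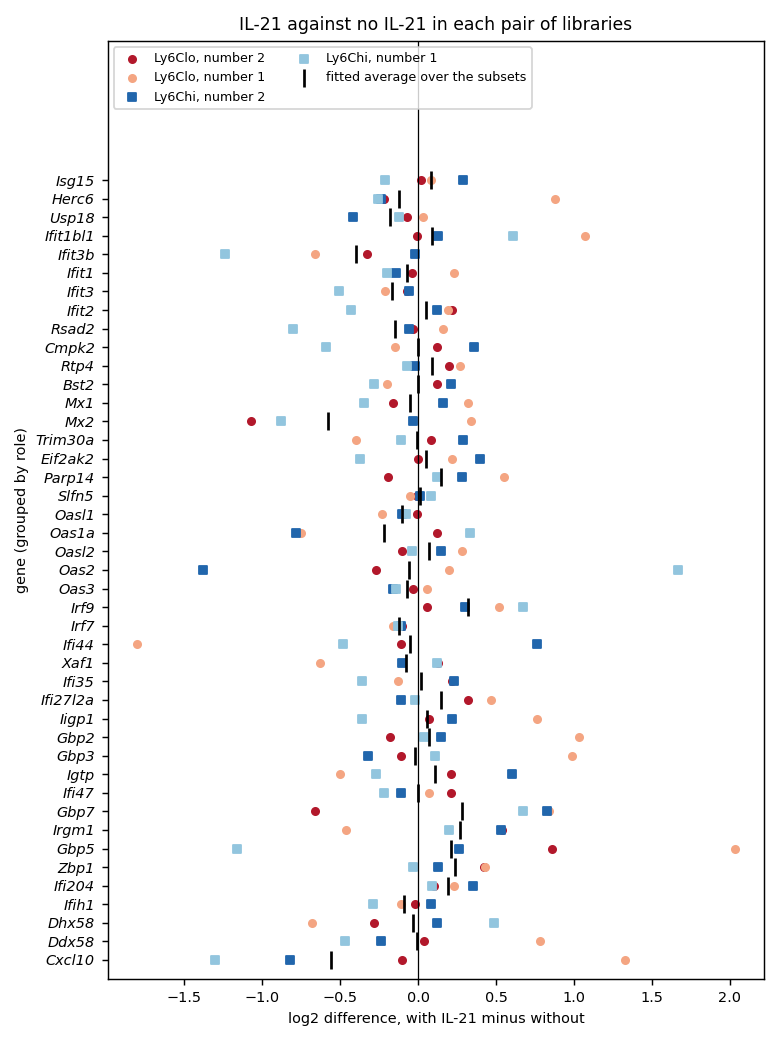
Log2 difference with IL-21 minus without for 43 genes in each of the 4 pairs of libraries that share subset and number (points), with the fitted average over the subsets (black tick). The points of most genes lie on both sides of 0; Irf9 and Ifi204 have all 4 above it.

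Most interferon-stimulated genes had a lower value in Ly6Clo than in Ly6Chi, and whether any passed the test depended on the replicate number being in the model. Without it, by edgeR's test, 0 of 43 members were called with IL-21 (0.019% of all genes called), without it (0.0381%) or on average (0.19%), and DESeq2 called none. At an unadjusted p under 0.05 there were 2, 4 and 6 members. The share of all genes at that threshold is not given here, so these counts are no result about the members. With the number as a replicate block, 1 member was called with IL-21 (0.78% of all genes called), 3 without it (0.59%) and 6 on average (2.51%), all lower in Ly6Clo. The 6 were Isg15 (log2 -0.61, SE 0.10, adjusted p = 0.000574), Rsad2 (log2 -0.78, SE 0.13, adjusted p = 0.000748), Zbp1, Ifit2, Oas3 and Ifit3b. The labels do not say that a number pairs libraries. The values that follow are from the model without the block. On average 38 of 43 lay below 0, with a median log2 of -0.30 against 0.00 for all genes. Of 43 members, 24 (55.8%) were lower in Ly6Clo in all 4 pairs of the same stimulation and number, against 11% of all genes. Oas3 had 242 and 264 CPM in Ly6Clo with IL-21 and 246 and 253 CPM in Ly6Clo without, against 372 and 331 CPM in Ly6Chi with IL-21 and 416 and 365 CPM in Ly6Chi without. All 4 Ly6Clo libraries lay below all 4 Ly6Chi libraries, and the fitted difference was log2 -0.56 (SE 0.16, 95% interval -0.90 to -0.23, adjusted p = 0.241). Slfn5 was ordered the same way, at 1523 to 1602 CPM in Ly6Clo against 1930 to 2139 CPM in Ly6Chi (log2 -0.35, SE 0.14, adjusted p = 0.54). Parp14, an ADP-ribosyltransferase, had 283 and 280 CPM in Ly6Clo with IL-21 and 323 and 191 CPM in Ly6Clo without, against 412 and 418 CPM in Ly6Chi with IL-21 and 339 and 385 CPM in Ly6Chi without. Again no Ly6Clo library reached a Ly6Chi one (log2 -0.51, SE 0.18, adjusted p = 0.49), nor did any for Oasl2 (log2 -0.32, SE 0.16). Isg15 was lower in Ly6Clo within each number, yet overlapped across numbers, at log2 -0.55 (SE 0.45, adjusted p = 0.846). Oas2 and Ifi27l2a lay above 0, at log2 0.32 and 0.14. Of the further interferon-stimulated genes, 65 of 73 lay below 0 with none called, and of the pathway genes 19 of 24. The share of all genes below 0 is not given here, and their median was 0.00. The sum of the neutrophil list, mostly Mmp8, moved with the subset too, at 636 to 1262 CPM in Ly6Clo against 1400 to 2331 CPM in Ly6Chi. The other markers of the list did not separate. S100a8 overlapped, at 45.7 to 104 CPM in Ly6Clo and 74.5 to 139 CPM in Ly6Chi, and so did Csf3r. S100a9 had 0 to 1 counts a library, and Ly6g and Retnlg were at 0. The part of this list was not tested.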

How the data were processed

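RNA was measured in 8 libraries of sorted mouse cardiac macrophages made with a 3' end kit that includes unique molecular identifiers, per the labels' protocols. The authors deposited 1 table per library of expected counts, which are estimates and can hold fractions; 53.3 to 59.7% of values above 0 were not whole, at a tolerance of 0.001. The submitters' processing notes name mm10 and DESeq2 with no version. What aligned and counted the reads, and with which use of strand and identifiers, is not given in the sources used here. Floors in counts cover counting error only.

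Expected counts were rounded, and 53237 of 53342 identifiers matched GENCODE M21. Genes were kept by filterByExpr (minimum count 10, minimum total 15), scaled by TMM and fitted over all 5256 genes with edgeR 4.0.16 (limma 3.58.1, R 4.3.3; robust quasi-likelihood test). Adjusted p values are Benjamini-Hochberg over all genes tested, and 0.05 is the threshold. IL-21 and subset contrasts came from 4 group means (4 residual degrees of freedom); the number difference from the same model plus number (3). CPM use TMM-scaled totals, and heatmap and pair differences a pseudocount of 1 CPM. The fit was tested on simulated data. Alternatives were DESeq2 1.42.0, RLE size factors, no filter, unrounded values, the replicate block and leaving out each library.

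The members and gene lists were chosen with earlier results of these data known. Named genes are members called in any contrast (the 12 largest differences in full, with range or difference for the rest), up to 2 with the smallest p per direction where none was called, the 5 highest, and 12 genes by role. The result for 1 gene of the pathway list is not reported here.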

Additional observations from a re-analysis of the deposited data

Results flagged for a closer look

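Cxcl10 was singled out because its difference between replicate numbers was not the same in both subsets. The log2 difference of number 2 over number 1 was 3.12 in Ly6Clo and -0.06 in Ly6Chi, and the interaction of number and subset, fitted after seeing the data, gave 3.19 (SE 0.63, adjusted p = 0.00703 by edgeR's quasi-likelihood test). Both Ly6Clo libraries numbered 2 were higher than both numbered 1, whose values rest on 3 counts and 1 count. DESeq2 did not call this difference, and 5 of the 8 fits that left out 1 library lost the call, at 2.60 to 4.16.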

How the results depend on the processing

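The direction of the number difference held for the named members under RLE size factors, DESeq2 and unrounded values; without the filter on low counts Slfn5 turned to 0.01. Of 43 members, DESeq2 called 15 for the number, 5 for the number in Ly6Chi, 15 in Ly6Clo and 0 for the difference between subsets, where dropping the filter gave 3. For the counts within subsets and for their difference, the shares of all genes called under the alternatives are not given here. Leaving out 1 library gave 14 to 26 calls for the number, 5 to 11 in Ly6Chi, 15 to 27 in Ly6Clo, 0 to 6 for their difference and 0 to 1 for the averaged subset difference; the cause was not tested.

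Same-numbered libraries deviated together (r = 0.205 to 0.382 over 5254 genes for 6 pairs of groups), but the labels do not say that a number pairs samples, so this is only a hint from the data. A replicate block called 6 members lower in Ly6Clo on average, 3 without IL-21 and 1 with IL-21, with 2.51%, 0.59% and 0.78% of all genes called. By edgeR the block called 0 members for any IL-21 contrast, with 0.019% to 1.14% of all genes called. It left 1 to 3 members a contrast at an unadjusted p under 0.05, and the share of all genes there is not given here. With the block, 40 of 43 intervals of the average excluded a 2-fold change, and Bst2 turned to -0.03.

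Log2 values that changed sign without 1 library ranged as follows. For the averaged IL-21 effect they were -0.24 to 0.18 for Bst2, -1.51 to 1.14 for Cxcl10, -0.29 to 0.93 for Gbp2, -0.48 to 0.44 for Ifit1, -0.62 to 0.24 for Ifit3, -0.32 to 0.07 for Irf7, -0.04 to 0.45 for Irgm1, -0.28 to 0.46 for Isg15, -0.25 to 0.32 for Mx1, -0.58 to 0.35 for Rsad2, -0.02 to 0.04 for Slfn5 and -0.49 to 0.17 for Usp18. In single subsets they were -1.13 to 0.42 for Mx2 and -0.05 to 3.19 for Gbp5 in Ly6Clo, -0.66 to 0.03 for Ddx58 in Ly6Chi, and -1.47 to 0.20 for Gbp7 in the difference. For the averaged subset difference they were -1.07 to 0.13 for Gbp2, -0.05 to 0.30 for Ifi27l2a, -0.69 to 0.12 for Ifit1, -0.30 to 0.05 for Irf7, -0.42 to 0.05 for Irf9 and -0.00 to 1.03 for Oas2, which gave -0.05 to 1.0 with IL-21 and -0.34 to 1.72 without. For the number they were -0.40 to 0.03 for Ddx58 and -0.07 to 0.01 for Slfn5, with -0.47 to 0.02 for Oas2 in Ly6Clo, -1.18 to 0.28 for Gbp5 in Ly6Chi, and -2.30 to 0.82 for Oas2 in the difference between subsets.

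With 224329 to 483593 counts a library and 2 libraries a group, some intervals are wide, and a missed threshold does not show equal levels.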
